A study of Homo sapiens with 6 samples.

Results

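The DNA replication origin and fork genes described here are 58 genes for origin licensing, the replicative helicase, the polymerases, the sliding clamp and its loaders, and the proteins that accompany the fork. They were chosen by name, with earlier results of these data known, and all 58 were found on 1 row each among 18317 gene names. The cells were HUVECs, endothelial cells taken from the human umbilical vein and grown as primary cultures. In 3 libraries the cells had received the microRNA miR-483, and in the other 3 libraries 8OH-G miR-483, the form with oxidised guanine. RNA was taken on day 2, and all cells had been through the same lipid transfection. The labels also speak of a scramble control, which was not analysed here, so each difference is between the forms and has no untreated level beside it. The labels name no separate cultures or donors for the libraries of a group, so p-values measure the spread between these libraries, which may be technical.

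A replicating cell first marks its origins with the origin recognition complex (ORC), on which CDC6 and CDT1 load the MCM2-7 helicase as an inactive ring. Kinases then recruit CDC45 and the GINS complex to that ring, which turns it into the active CMG helicase. Polymerase alpha with its primase starts each strand, polymerases delta and epsilon extend it, and PCNA, a ring loaded by the RFC complex, holds them on the template. In the adult vessel most endothelial cells are quiescent, and many of these genes are known as targets of the E2F factors, which raise them as a cell leaves quiescence and enters S phase.

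The promoters of 7 of these genes are shown first because these genes recur in the results below. MCM2, MCM6 and MCM7 differ in how far they rose, CDC6 and GINS2 rose over 10-fold, and LIG1 and ORC4 are the genes that did not pass the test. MCM10 and ORC1 also rose over 10-fold, hold no match to the E2F motif given below and are not shown. Each sequence below is the window from 250 bases before to 50 bases after a gene start, from RefSeq on GRCh38.p14, 5′ to 3′ on the gene's own strand. MCM7 and ORC4 have further starts whose windows are not shown, and those windows hold no E2F match. Capitals mark matches to an E2F motif (TTTCCCGC, TTTCGCGC, TTTGCCGC or TTTGGCGC, on either strand) or to CCAAT, the box bound by NF-Y, on either strand.
MCM2, chr3:127598161-127598460, plus strand: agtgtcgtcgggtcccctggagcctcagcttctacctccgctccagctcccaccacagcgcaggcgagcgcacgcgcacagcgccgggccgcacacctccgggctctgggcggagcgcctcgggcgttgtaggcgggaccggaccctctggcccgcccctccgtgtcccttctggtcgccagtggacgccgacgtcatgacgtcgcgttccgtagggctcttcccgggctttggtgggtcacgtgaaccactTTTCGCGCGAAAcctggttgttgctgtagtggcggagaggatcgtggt
MCM6, chr2:135876394-135876693, minus strand: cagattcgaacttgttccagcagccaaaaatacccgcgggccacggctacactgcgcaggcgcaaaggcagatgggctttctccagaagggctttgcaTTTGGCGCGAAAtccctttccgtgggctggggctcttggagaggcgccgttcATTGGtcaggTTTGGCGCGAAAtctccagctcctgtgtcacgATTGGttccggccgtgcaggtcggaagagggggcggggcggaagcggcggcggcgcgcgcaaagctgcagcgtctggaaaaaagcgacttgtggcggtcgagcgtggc
MCM7, chr7:100101348-100101647, minus strand: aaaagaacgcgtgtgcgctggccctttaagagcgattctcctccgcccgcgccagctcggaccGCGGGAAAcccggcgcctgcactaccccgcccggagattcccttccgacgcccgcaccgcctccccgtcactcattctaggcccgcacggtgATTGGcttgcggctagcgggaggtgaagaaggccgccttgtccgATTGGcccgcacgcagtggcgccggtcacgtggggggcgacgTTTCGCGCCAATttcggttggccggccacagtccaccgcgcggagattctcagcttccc
CDC6, chr17:40287629-40287928, plus strand: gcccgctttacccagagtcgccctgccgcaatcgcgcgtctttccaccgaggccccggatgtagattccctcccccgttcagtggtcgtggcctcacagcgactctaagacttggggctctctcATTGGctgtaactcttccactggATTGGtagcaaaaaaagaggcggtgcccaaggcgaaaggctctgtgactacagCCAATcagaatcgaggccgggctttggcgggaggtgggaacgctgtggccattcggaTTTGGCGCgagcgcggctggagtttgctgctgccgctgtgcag
GINS2, chr16:85688905-85689204, minus strand: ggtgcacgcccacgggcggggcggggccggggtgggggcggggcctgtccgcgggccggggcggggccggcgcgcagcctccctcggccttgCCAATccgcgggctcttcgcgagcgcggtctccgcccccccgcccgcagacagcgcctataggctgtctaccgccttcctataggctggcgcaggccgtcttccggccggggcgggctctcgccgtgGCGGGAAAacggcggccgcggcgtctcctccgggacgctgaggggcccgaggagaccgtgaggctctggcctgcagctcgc
LIG1, chr19:48170295-48170594, minus strand: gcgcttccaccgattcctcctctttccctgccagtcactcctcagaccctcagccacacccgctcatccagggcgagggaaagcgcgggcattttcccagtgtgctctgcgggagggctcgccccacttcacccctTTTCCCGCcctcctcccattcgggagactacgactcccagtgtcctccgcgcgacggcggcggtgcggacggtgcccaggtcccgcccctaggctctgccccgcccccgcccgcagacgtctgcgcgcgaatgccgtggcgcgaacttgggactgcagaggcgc
ORC4, chr2:148021502-148021801, minus strand: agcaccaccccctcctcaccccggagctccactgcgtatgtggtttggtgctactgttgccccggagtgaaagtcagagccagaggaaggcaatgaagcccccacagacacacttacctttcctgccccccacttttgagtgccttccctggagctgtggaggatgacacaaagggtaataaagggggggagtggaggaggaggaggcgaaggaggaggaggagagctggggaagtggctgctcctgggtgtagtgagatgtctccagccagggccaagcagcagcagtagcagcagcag

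Of the 58 genes, 56 were higher with 8OH-G miR-483, 0 were lower and 2, LIG1 and ORC4, did not pass (limma on log2(FPKM + 1), adjusted p of 0.05 over 12712 genes tested). Over all genes tested, 34.9% were higher and 20.5% lower by the same test. The median log2 fold change of the 58 genes was 1.36, with quartiles of 0.91 and 1.79, against a median of 0.09 and quartiles of -0.18 and 0.38 over all genes tested. In mean level, 43 of the 58 rose at least 2-fold, 14 at least 5-fold and 4 at least 10-fold. The share of all tested genes at these folds was not counted. The last 4, MCM10, GINS2, CDC6 and ORC1, were under 1 FPKM in every miR-483 library. They entered the test, which asked for 1 FPKM in 3 libraries, only through the group in which they were higher. FPKM, the unit of the deposited values as inferred from their size, is scaled for gene length. Levels of different genes are compared on that basis, though strand use and the treatment of shared reads are unknown. Every 8OH-G miR-483 value lay above every miR-483 value for 56 genes, which held for 39.5% of all genes tested. Every value lay below for LIG1 alone, which held for 23.7% of all genes tested, and only ORC4 overlapped. In RNA from whole cultures, a larger share of replicating cells and more RNA per replicating cell cannot be told apart.

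**Figure D1:**
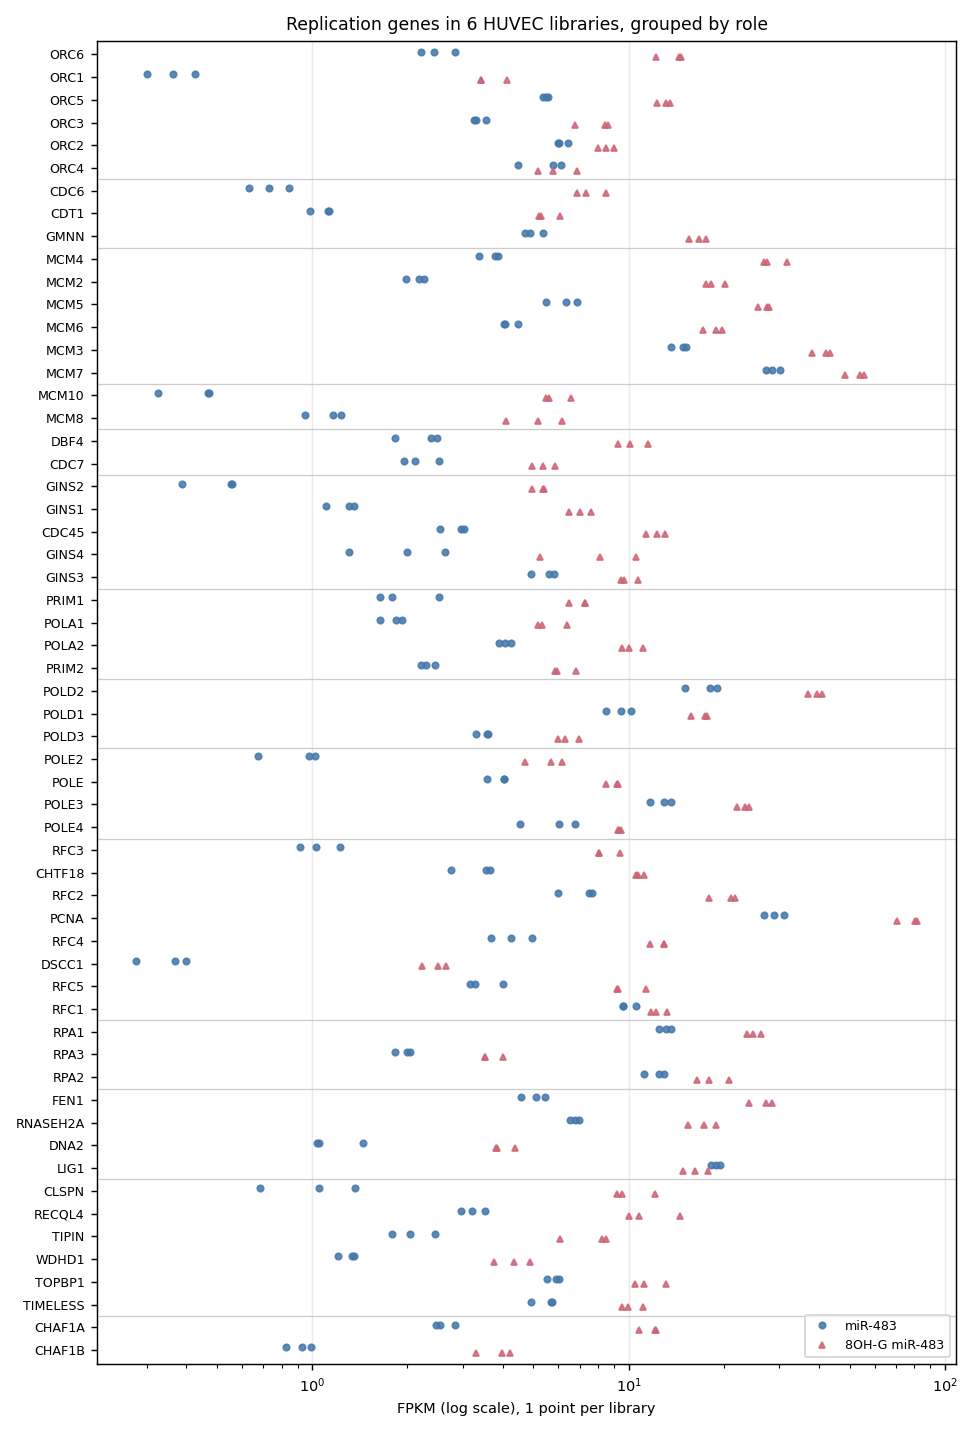
FPKM (log axis) of each of the 58 genes, 1 point per library, with circles for miR-483 and triangles for 8OH-G miR-483 and grey lines between roles. The triangles lie to the right of the circles for 56 genes, overlap them for ORC4 and lie to the left for LIG1.

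The library totals ran from 1396537 to 1687283 FPKM, of which mitochondrial rows took 73.4% to 78.4%, and the depth in reads is unknown. Replicates of a group correlated at 0.989 to 0.993 across genes. All 11 endothelial markers examined were expressed, with a summed level of 2288 to 2327 FPKM with miR-483 and 1455 to 1709 FPKM with 8OH-G miR-483. In that order, means were 509 and 243 FPKM for VWF, 381 and 267 for CDH5, and 219 and 122 for PECAM1. They were 301 and 216 for TIE1, 164 and 120 for ROBO4, 86.1 and 24.1 for TEK, and 202 and 177 for ESAM. KDR (62.6 and 62), CLDN5 (24 and 23.4) and EGFL7 (294 and 290) differed little, and ERG was at 66.9 and 72.7. Of the 4 mural markers measured, 2 reached 1 FPKM, and their sum was 618 to 839 FPKM with miR-483 and 824 to 1017 FPKM with 8OH-G miR-483. Nearly all of it was RGS5 (712 and 890 FPKM), with ACTA2 at 1.85 and 1.82 FPKM and MYH11 and NOTCH3 below 0.3 FPKM on average in both groups. The 4 fibroblast markers measured summed to 0.536 to 1.42 FPKM in any library. The leukocyte marker LYZ had means of 4.03 and 0.109 FPKM. The part of these shifts in the results was not tested.

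Among the origin recognition genes, 5 of 6 rose and the sizes differed widely. Values are given below in the order of replicates 1, 2 and 3, in FPKM. ORC1, the large ATPase subunit that is made anew for licensing, had 0.427, 0.30 and 0.363 with miR-483 and 3.43, 3.43 and 4.12 with 8OH-G miR-483. That is a 10.1-fold higher mean (log2 fold change 1.77, SE 0.09, adjusted p = 2.34e-06), from under 1 FPKM in every miR-483 library. ORC6, the smallest subunit, had the largest log2 fold change of the complex, 2.08 (SE 0.10), with 2.21, 2.43 and 2.83 against 12.2, 14.5 and 14.7. ORC3 and ORC5 rose 2.36-fold and 2.37-fold, and ORC2 1.38-fold, from 6.15 ± 0.256 to 8.50 ± 0.494 (mean ± SD, n = 3 libraries per group throughout). ORC4, another ATPase subunit, had 6.10, 5.77 and 4.48 against 6.87, 5.77 and 5.19, and its groups overlapped. Its log2 fold change was 0.11 (SE 0.12, adjusted p = 0.478), with a range of -0.05 to 0.19 over the alternatives. With miR-483, ORC2, ORC5 and ORC4 were the highest subunits, at means of 6.15, 5.47 and 5.45, and ORC1 was the lowest in both groups.

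All 3 licensing factors rose. CDC6, the ATPase that brings the helicase to ORC, had 0.631, 0.733 and 0.846 with miR-483 and 6.87, 7.35 and 8.48 with 8OH-G miR-483, a 10.3-fold higher mean (log2 fold change 2.30, SE 0.09). GMNN, the geminin that blocks CDT1 after origins have fired, had the smallest log2 fold change of the 3, 1.56 (SE 0.08), and went from 4.70, 5.36 and 4.89 to 15.6, 16.7 and 17.6. CDT1, which is loaded with MCM2-7 and held back by geminin, rose 5.10-fold, from 1.08 ± 0.0838 to 5.52 ± 0.480. The level of GMNN was above that of CDT1 in all 6 libraries.

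All 6 subunits of the MCM2-7 ring rose, by 1.84-fold to 8.71-fold. MCM4, with the largest log2 fold change of the 58 genes (2.66, SE 0.08, adjusted p = 4.09e-07), had 3.79, 3.36 and 3.85 with miR-483 and 26.8, 27.3 and 31.6 with 8OH-G miR-483. MCM2 followed at 2.64 (SE 0.08), with 1.98, 2.18 and 2.25 against 17.5, 18.2 and 20.1. MCM7 had the smallest change, 0.86 (SE 0.08, adjusted p = 3.03e-05), with 27.2, 30.0 and 28.5 against 48.2, 53.8 and 55.7. MCM5 and MCM6 rose 4.32-fold and 4.43-fold, and MCM3 2.82-fold, from 14.6 ± 0.825 to 41.2 ± 2.74. The order of the 6 subunits by level with miR-483 was the reverse of their order by fold.

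The ring holds its 6 subunits in equal number, and their messenger levels came closer together. The highest subunit, MCM7, exceeded the lowest 13.8-fold, 13.8-fold and 12.6-fold in the miR-483 libraries and 2.81-fold, 2.96-fold and 2.83-fold in the 8OH-G miR-483 libraries. The same ratio went from 17.3 ± 2.85 to 3.79 ± 0.377 in ORC1-6, from 11.1 ± 1.36 to 2.34 ± 0.0735 among CDC45 and the GINS subunits, and from 9.57 ± 1.85 to 2.39 ± 0.198 in RFC1-5. It went from 15.0 ± 4.62 to 4.24 ± 0.432 in polymerase epsilon. In these 5 complexes the libraries of the groups did not overlap. In RPA1-3 they did, with ratios of 6.75 ± 0.660 and 6.79 ± 0.641. In POLD1, POLD2 and POLD3 of polymerase delta the ratio was 5.04 ± 0.791 and 6.11 ± 0.611, with overlap. That ratio leaves out the subunit POLD4, which went from 56.5 ± 8.70 to 26.1 ± 6.15 FPKM and was the highest in every miR-483 library. With POLD4 counted, the ratio would be larger in every miR-483 library and the same in every 8OH-G miR-483 library, without overlap. In polymerase alpha and primase the ratio was 2.37 ± 0.293 and 1.82 ± 0.109, without overlap. Over all 58 genes the SD of the log2 mean level went from 1.51 to 1.02, while over 12710 tested genes it went from 2.01 to 1.98.

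**Figure D2:**
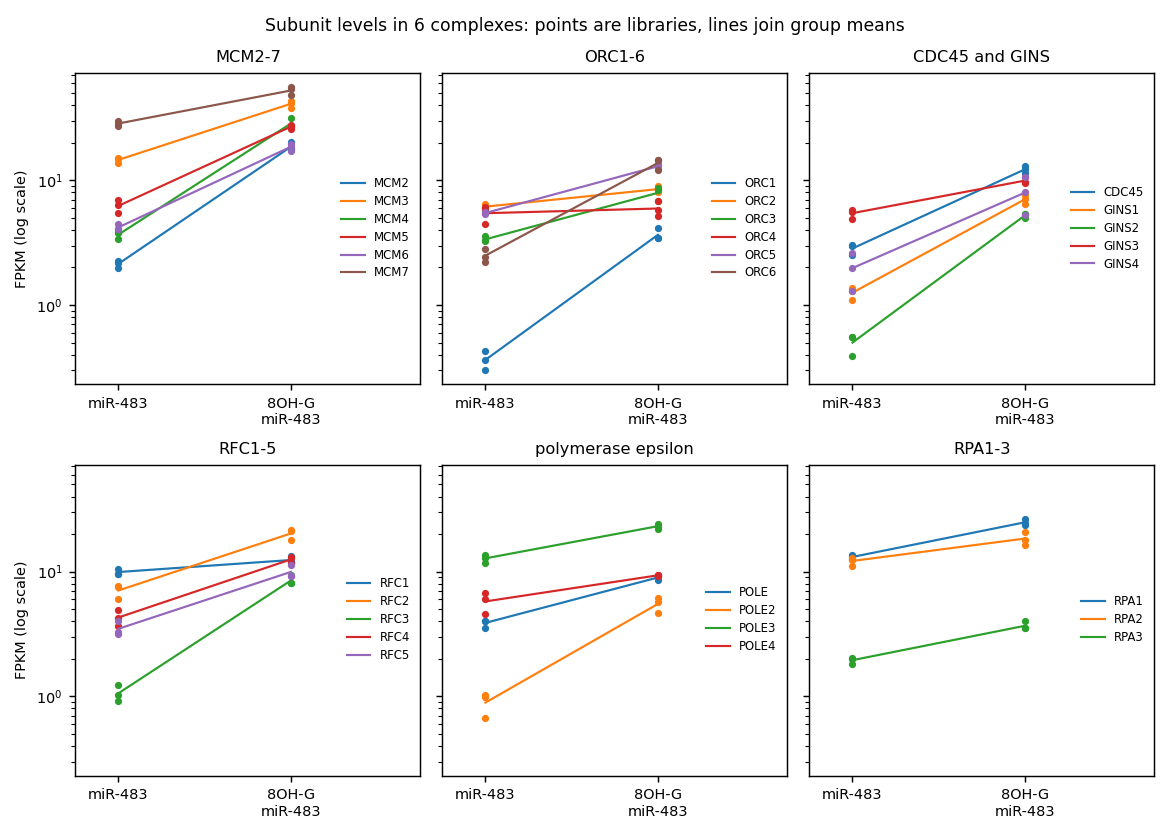
FPKM (log axis) of the subunits of 6 complexes in miR-483 and 8OH-G miR-483 cells, with a point per library and a line joining the group means of each subunit. In MCM2-7 the lines converge, from a highest-to-lowest ratio of 13.4 to one of 2.86, whereas in RPA1-3 the highest and lowest lines keep their distance (6.75 and 6.79).

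Over the whole set, genes with a lower level with miR-483 tended to rise by a larger fold. The 18 genes with a mean under 2 FPKM with miR-483 rose by a median of 5.36-fold, with a range of 1.89-fold to 14.0-fold. The 8 genes at 10 FPKM or more had a median of 1.87-fold and a range of 0.865-fold to 2.82-fold. The miR-483 level enters both quantities, so this is a description and not a test. The means of the 58 genes spanned 0.349 to 28.9 FPKM with miR-483 and 2.46 to 77.5 FPKM with 8OH-G miR-483. DSCC1 was the lowest and PCNA the highest in both groups.

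MCM10 and MCM8 lie outside the ring. MCM10, which helps to activate the helicase, had 0.469, 0.325 and 0.473 with miR-483 and 5.47, 5.62 and 6.60 with 8OH-G miR-483. Its 14.0-fold higher mean was the largest ratio of the 58 genes (log2 fold change 2.28, SE 0.09, adjusted p = 9.61e-07). MCM8, a helicase known chiefly from recombination repair, had 1.23, 0.946 and 1.16 against 5.18, 4.10 and 6.17 (log2 fold change 1.53, SE 0.13). MCM10, ORC1, CDC6, GINS2, CHAF1B and DSCC1 were under 1 FPKM in all miR-483 libraries, so these 6 passed the filter on low values only through the group in which they were higher. Without a filter, when all 18317 names were tested, 56 of the 58 genes were again higher.

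The firing kinase and the remaining parts of the CMG helicase rose as well. DBF4, the regulatory subunit, had 2.37, 2.47 and 1.83 against 9.27, 10.1 and 11.5, and its kinase CDC7 had 2.52, 2.11 and 1.95 against 4.94, 5.38 and 5.84. The 2 partners were at 2.23 ± 0.344 and 2.19 ± 0.299 with miR-483, and DBF4 was the higher in every 8OH-G miR-483 library. GINS2 had 0.389, 0.557 and 0.553 against 4.94, 5.39 and 5.38, a 10.5-fold higher mean (log2 fold change 2.06, SE 0.08). GINS3, the least changed GINS subunit, had 4.92, 5.82 and 5.62 against 9.46, 9.69 and 10.7 (0.76, SE 0.08). CDC45 rose 4.31-fold and GINS1 5.61-fold. GINS4 had 1.31, 1.99 and 2.63 against 5.25, 8.13 and 10.5, with the largest relative SD of the 58 genes in both groups (33.6% and 33.2%). Its rise (1.57, SE 0.24, adjusted p = 0.00115) passed under all alternatives, with adjusted p from 2.02e-05 to 0.0111.

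All polymerase subunits among the 58 genes rose, by 1.62-fold for POLE4 to 6.19-fold for POLE2. In polymerase alpha and primase, which lays down the RNA-DNA primer, PRIM1 had the largest change on the log2(FPKM + 1) scale (1.64, 1.78 and 2.52 against 6.48, 7.29 and 7.28) and PRIM2 the smallest (2.28, 2.21 and 2.45 against 5.96, 5.84 and 6.82). Their log2 fold changes were 1.44 (SE 0.12) and 1.12 (SE 0.08), while in ratio of means PRIM1 rose 3.54-fold, POLA1 3.13-fold, PRIM2 2.68-fold and POLA2 2.51-fold. PRIM2 has partial copies in the genome, and the treatment of shared reads is unknown, which leaves its level uncertain. In polymerase delta, the main lagging-strand enzyme, POLD2 had 15.1, 19.1 and 18.2 against 36.8, 40.8 and 39.4 (1.12, SE 0.09). POLD3 had 3.57, 3.28 and 3.59 against 6.28, 6.0 and 6.96 (0.73, SE 0.08), and the catalytic subunit POLD1 rose 1.82-fold. In polymerase epsilon, the main leading-strand enzyme, POLE2 went from 0.980, 0.672 and 1.02 to 4.70, 5.68 and 6.15 (1.78, SE 0.11). POLE4, a small histone-fold subunit, went from 4.53, 6.76 and 6.02 to 9.45, 9.26 and 9.33 (0.63, SE 0.12, adjusted p = 0.00199), and the catalytic subunit POLE rose 2.31-fold and POLE3 1.81-fold.

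PCNA was the most abundant of the 58 genes in group mean and had 26.8, 31.0 and 28.9 with miR-483 and 70.4, 80.7 and 81.5 with 8OH-G miR-483 (log2 fold change 1.39, SE 0.08). Among its loaders, RFC3 rose most, from 0.917, 1.03 and 1.23 to 8.06, 8.07 and 9.37 (2.21, SE 0.09). RFC1, the large subunit, moved least, from 10.6, 9.62 and 9.61 to 12.2, 11.7 and 13.3 (0.29, SE 0.07, adjusted p = 0.00909). RFC1 had the highest level of the complex with miR-483 and RFC2 had it with 8OH-G miR-483. RFC1 did not pass after quantile normalization (adjusted p = 0.0882) or with a fold threshold of 1.2 (adjusted p = 0.721), and ORC2 did not pass with that threshold (adjusted p = 0.114). RFC2, RFC4 and RFC5 rose 2.87-fold, 2.92-fold and 2.86-fold. DSCC1 and CHTF18, which belong to an alternative loader, rose 7.05-fold and 3.27-fold. CHTF8, a further part of that loader outside the 58 genes, did not pass. It was at 58.6 ± 7.43 and 54.0 ± 1.18 (-0.11, SE 0.09, adjusted p = 0.349).

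The 3 subunits of RPA, which coats single-stranded DNA, rose by 1.51-fold to 1.90-fold. RPA1 had 12.5, 13.2 and 13.6 against 23.6, 24.8 and 26.2 (0.87, SE 0.07), and RPA2 had 11.2, 12.9 and 12.4 against 16.5, 20.8 and 18.0 (0.56, SE 0.10, adjusted p = 0.00133). RPA3 rose 1.89-fold, from 1.95 ± 0.107 to 3.68 ± 0.283.

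The genes that process Okazaki fragments parted. FEN1, the nuclease that cuts the flap, had 4.56, 5.10 and 5.45 with miR-483 and 24.1, 28.4 and 27.2 with 8OH-G miR-483 (2.19, SE 0.09, adjusted p = 9.22e-07). LIG1, the ligase that seals the nick that FEN1 leaves, had 18.3, 19.0 and 19.5 against 14.9, 17.8 and 16.3 (-0.20, SE 0.08, adjusted p = 0.0548). FEN1 was below LIG1 in every miR-483 library and above it in every 8OH-G miR-483 library. LIG1 did not pass as deposited, and was called lower after median-ratio scaling (-0.29, adjusted p = 0.0108), quantile normalization (-0.30, adjusted p = 0.0103) and scaling to the nuclear total (-0.25, adjusted p = 0.0175). It was also called lower without 8OH-G miR-483 replicate 2 (-0.26, adjusted p = 0.0221) and with a replicate block (adjusted p = 0.034). DNA2 and RNASEH2A, a flap nuclease and the catalytic subunit of a ribonuclease that removes RNA from DNA, rose 3.41-fold and 2.55-fold.

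All 6 genes of fork protection and checkpoint signalling rose. CLSPN, the claspin that carries the checkpoint signal from ATR to CHEK1, had 1.05, 0.686 and 1.37 against 9.56, 9.22 and 12.1 (2.48, SE 0.14). TIMELESS had 5.75, 4.93 and 5.70 against 9.57, 9.97 and 11.1 (0.80, SE 0.08), whereas its partner TIPIN rose 3.64-fold, from 2.09 ± 0.329 to 7.61 ± 1.35. WDHD1, which ties polymerase alpha to the helicase, rose 3.34-fold, the helicase RECQL4 3.65-fold and TOPBP1, a scaffold of firing and of ATR signalling, 2.00-fold. Chromatin assembly factor 1 puts histones on new DNA. Its subunit CHAF1A had 2.54, 2.47 and 2.83 against 10.8, 12.2 and 12.1 (1.81, SE 0.08), and CHAF1B had 0.826, 0.931 and 0.994 against 3.29, 3.98 and 4.22 (1.33, SE 0.10).

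**Figure D3:**
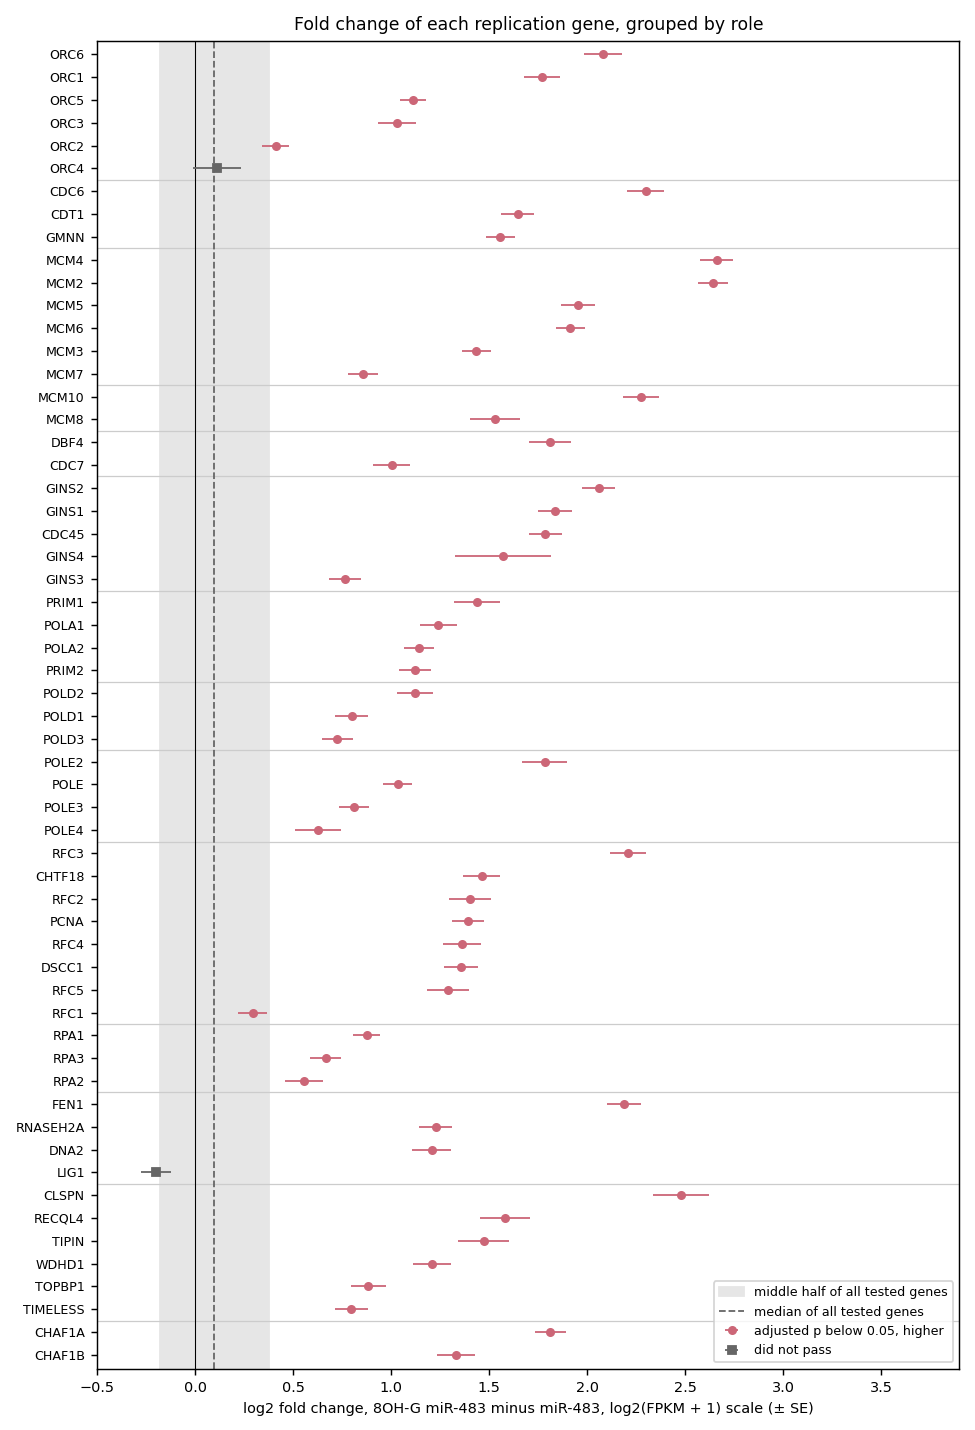
Log2 fold change (8OH-G miR-483 minus miR-483, log2(FPKM + 1) scale, bars ± SE) of each of the 58 genes by role, with the median and the middle part between the quartiles of all tested genes in grey. The 2 squares, ORC4 (0.11) and LIG1 (-0.20), did not pass, and all but these and RFC1 (0.29) lie to the right of the upper quartile of 0.38.

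Within the groups, the libraries did not share these genes evenly. 8OH-G miR-483 replicate 3 was the highest of its group for 37 of the 58 genes (63.8%) and for 35.7% of all tested genes, and replicate 1 was the lowest for 44 of the 58 (75.9%) and for 28.7% of all tested genes. The miR-483 libraries leaned the same way. Their replicate 3 was the highest for 30 of the 58 (51.7%) and for 30.7% of all tested genes. Their replicate 1 was the lowest for 32 of the 58 (55.2%) and for 39.9% of all tested genes. The summed level of the 58 genes was 296, 318 and 320 FPKM in the miR-483 libraries and 756, 826 and 859 FPKM in the 8OH-G miR-483 libraries, so the spread within a group was far smaller than the gap between groups. Leaving out any 8OH-G miR-483 library took 6 of the genes below the filter, and 50 of the 52 left were called higher each time. Leaving out any miR-483 library left 56 of 58 higher.

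The promoter windows were searched for motifs of cell-cycle transcription. RefSeq windows were found for 49 of the 58 genes, 62 windows in all, and a gene counted if any of its windows held the motif. An E2F motif was present for 24 of the 49 genes (49.0%, 95% Wilson interval 35.6% to 62.5%), for 610 of 8839 tested genes with a window (6.90%) and for 3.99% of 27305 genes with a window. All 24 still held a match when the window was shortened to 150 bases before the start, while the share of tested genes was then 4.94%. By role, the match was found for 4 of 4 MCM2-7 genes and 3 of 3 licensing factors with a window, for 3 of 4 CDC45 and GINS genes, and for 1 of 6 ORC genes, ORC3. It was found for 0 of 2 polymerase delta and 0 of 2 chromatin assembly genes. The E2F letters can overlap those of GGGCGG, and a match is not a measured binding site.

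Among the 49 genes with a window, the changes of those with and without an E2F match overlapped widely. The median log2 fold change was 1.45 for the 24 genes with a match and 1.29 for the 25 without, and the quartile ranges overlapped (1.02 to 1.85 and 0.87 to 1.77). MCM10 and ORC1, both over 10-fold higher, had no E2F match, and LIG1 had one, TTTCCCGC, beginning 114 bases before the start. Only exact letters were counted as a match. The MCM10 window, for example, holds TTTGGCGG, which differs from TTTGGCGC in its last base. MCM7 had a pair of matches and the smallest rise of the ring, while MCM6 had 4 matches in overlapping pairs and a rise between those of MCM7 and MCM2. ORC4 had neither an E2F match nor a CCAAT box in the windows found. Over all tested genes the median was 0.19 for the 610 with a match and 0.11 for the 8229 without.

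CCAAT was found for 29 of the 49 genes (59.2%, interval 45.2% to 71.8%) and for 43.7% of tested genes with a window, and 15 genes held both it and an E2F match. The cell cycle homology element (TTTGAA or TTCGAA), known from promoters of genes that peak in mitosis, was found for 3 of 49 (6.12%, interval 2.10% to 16.5%) and for 15.4% of tested genes. GGGCGG, the GC box, was found for 79.6% and 77.9%, and TGACGTCA, the cAMP response element, for 6.12% and 4.0%.

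**Figure D4:**
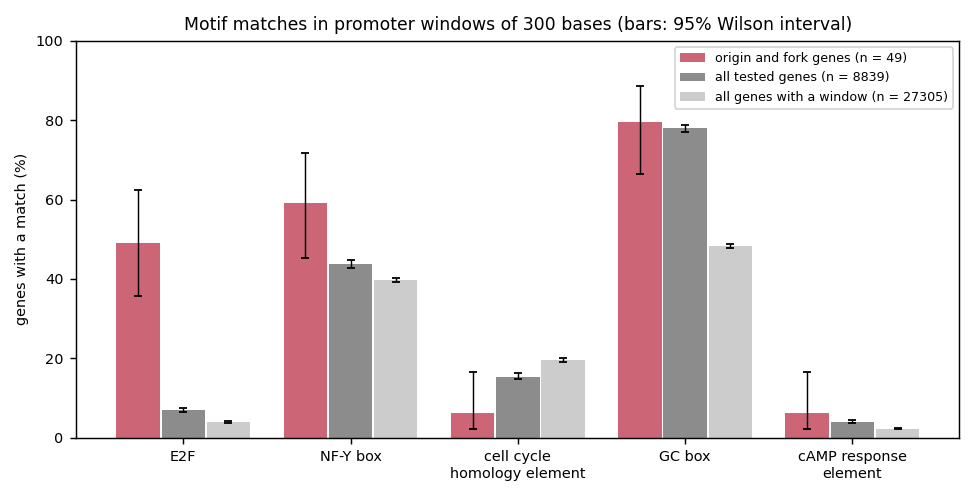
Percentage of genes with a match to each of 5 motifs in windows of 300 bases around the start, for the origin and fork genes (n = 49), all tested genes (n = 8839) and all genes with a window (n = 27305), with 95% Wilson intervals. The E2F bars are at 49.0%, 6.90% and 3.99%, while the GC box bars of the first and second set are at 79.6% and 77.9%.

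Some of these genes share a start region with a neighbour that is read in the opposite direction. For 15 of them a tested neighbour began within 1000 bases on the other strand, and of these 15 neighbours 7 were higher, 2 lower and 6 did not pass. The median log2 change of the neighbours was 0.19. Of all genes tested, 34.9% were higher and 20.5% lower. TPRA1, whose start lies 180 bases from that of MCM2, was lower (-0.49, adjusted p = 0.00114, against 2.64 for MCM2), and so was CDS2 beside PCNA (-0.55, adjusted p = 0.00112). AP4M1, whose start lies 40 bases from that of MCM7, did not pass (-0.05, adjusted p = 0.582). TRMT6 beside MCM8 had the largest log2 fold change of the neighbours (0.92, adjusted p = 3.83e-05).

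Genes that work with the origin and fork set were read from 4 further lists, which were also chosen with earlier results of these data known. Of 33 genes of initiation and checkpoint control, 27 rose, 1 fell and 5 did not pass. Their median log2 fold change was 0.69. TICRR, MTBP, ATAD5, DTL, ESCO2 and EXO1 were under 1 FPKM in every miR-483 library. These genes passed the filter on low values only through the group in which they were higher. Without a filter, 26 genes of the list were higher. DTL, which marks CDT1 for destruction at PCNA, rose from 0.646 ± 0.107 to 5.94 ± 0.674 FPKM (2.07, SE 0.10), and CCNA2, cyclin A2, from 4.07 ± 0.0855 to 20.1 ± 2.42 FPKM (2.05, SE 0.09). TICRR and MTBP, which act together in loading CDC45, went from 0.530 ± 0.0842 to 2.44 ± 0.335 FPKM and from 0.490 ± 0.109 to 2.11 ± 0.298 FPKM. CDK2 rose from 14.8 ± 0.521 to 19.6 ± 0.624 FPKM (0.38, SE 0.06). MCM9, the partner of MCM8, was at 2.22 ± 0.488 and 2.42 ± 0.191 FPKM (0.10, SE 0.12, adjusted p = 0.512).

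The gene that fell was POLD4, the smallest subunit of polymerase delta. It had 54.0, 66.2 and 49.3 FPKM with miR-483 and 29.3, 30.1 and 19.0 FPKM with 8OH-G miR-483 (-1.10, SE 0.18, adjusted p = 0.00119), and its groups did not overlap. With miR-483 its level was above that of POLD1, POLD2 and POLD3 in every library, whereas with 8OH-G miR-483 POLD2 was the higher in every library.

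Of 14 genes of chromatin replication, 13 rose and CABIN1 did not pass, with a median of 0.89. UHRF1, which brings the methyltransferase DNMT1 to newly made DNA, rose from 2.92 ± 0.404 to 23.1 ± 1.45 FPKM (2.62, SE 0.09), and ASF1B, a histone chaperone that hands histones to chromatin assembly factor 1, from 2.34 ± 0.0672 to 9.63 ± 0.433 FPKM. Of 12 genes for replication of mitochondrial DNA, 11 rose and the polymerase gene POLG did not pass, with a median of 0.61. TFAM, which packs mitochondrial DNA, rose from 6.28 ± 0.441 to 18.2 ± 3.53 FPKM, and C10orf2, the mitochondrial helicase gene TWNK under its older name, from 4.10 ± 0.992 to 10.7 ± 0.364 FPKM. Of 13 tested translesion and repair polymerase genes, 7 rose and 6 did not pass, with a median of 0.31, and 4 rose after quantile normalization. The count of 7 was also 4 without miR-483 replicate 2 and 4 without 8OH-G miR-483 replicate 1. POLQ and RAD18 rose by 1.14 each on the log2 scale, and REV1 was at 8.63 ± 0.382 and 8.48 ± 0.546 FPKM. POLQ, and MMS22L of the chromatin list, were under 1 FPKM in every miR-483 library and passed the filter only through the other group. Without a filter, 7 translesion and 12 chromatin genes were higher. The background is the same, 34.9% higher and 20.5% lower over all genes tested.

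**Figure D5:**
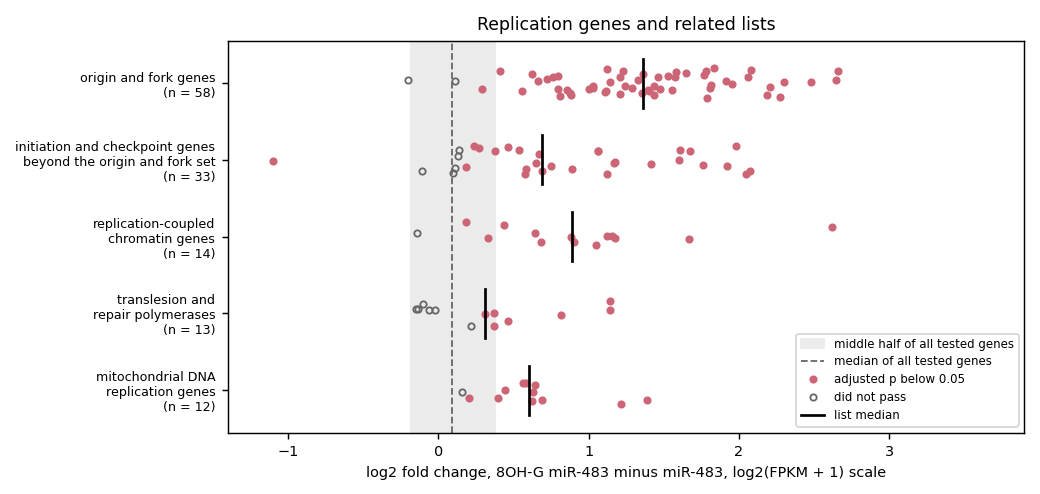
Log2 fold change (8OH-G miR-483 minus miR-483, log2(FPKM + 1) scale) of the 58 origin and fork genes and of 4 related lists, 1 point per gene, filled where the adjusted p was below 0.05, with a bar at each list's median. The medians are 1.36, 0.69, 0.89, 0.31 and 0.61, and the lone filled point at -1.10 is POLD4.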

How the data were processed

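The 6 RNA sequencing libraries of HUVECs fall into 2 groups of 3. Tools listed in the submitters' processing notes are STAR, HTSeq, cutadapt and DESeq2, and the build is hg19, with no roles or versions. Each file holds 1 column of decimal values on 20792 rows. The unit of the deposited values, scaled for length and library size by the authors, was inferred to be FPKM from column totals above what CPM or TPM can reach. No whole-read steps were found in low values: over 201 candidate depth ratios, the share of 2941 low genes on a step (within 0.03 log2) was at most 17.2%, with a median of 15.4%, so read depth is unknown. Names on several rows (748) entered once at the highest value per library, and 24 rows with names turned into dates were left out.

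Genes that reached 1 FPKM in 3 or more libraries (12712) were fitted on log2(FPKM + 1), which understates the change of low genes, with limma 3.58.1 in R 4.3.3 (trend, robust, group as the only term). P-values were adjusted by Benjamini-Hochberg over all genes tested, with a threshold of 0.05, and the fit was tested on simulated data. The design foresaw a count test for counts and this fit for normalized values. Log2 fold changes give 8OH-G miR-483 relative to miR-483, and N-fold values are ratios of mean FPKM. Whether counting used strand, and what became of shared reads, is not given in the sources used here: overlapping genes and close copies are uncertain.

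The 58 genes, the roles and the 4 further lists were chosen with earlier results of these data known. By rule, the genes with the largest and smallest change in each role and those that did not pass were given in every library. Genes of the further lists and neighbours were picked after their values were seen. Promoter windows came from RefSeq (GRCh38.p14, another build than the files), matched by symbol, and shares carry Wilson intervals, which cover counting error only. Figures were drawn in matplotlib 3.10.9. Alternatives covered the pseudocount, filters, scaling, repeated names, a replicate block, the variance model, a fold threshold, each library left out and the promoter window. The planned search for microRNA seed matches was not run.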

Additional observations from a re-analysis of the deposited data

How the results depend on the processing

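Of the 56 genes called higher, 54 were called so under every alternative that tested them. The exceptions were RFC1 and ORC2, whose values stand with their levels above. The count of higher genes was 56 under every alternative that kept all libraries, except 55 after quantile normalization and 54 with a fold threshold of 1.2, and it was 50 to 56 with a library left out. The count of lower genes, 0 as deposited, was 1 (LIG1) under median-ratio, quantile and nuclear-total scaling and with a replicate block, and 0 to 1 with a library left out. ORC4 changed sign after quantile normalization (-0.05) and was at -0.00 without miR-483 replicate 3 and at 0.19 without 8OH-G miR-483 replicate 3, and it passed under no alternative. The median log2 fold change of 1.36 became 1.62 and 1.46 with pseudocounts of 0.1 and 0.5 and 1.25 after quantile normalization. It was 1.21 to 1.38 with a library left out, where 6 of the genes leave the fit without any 8OH-G miR-483 library. Quantile normalization moved the median of all genes by -0.10 on the log2 scale. Higher genes were 63.0% of all calls as deposited, 51.6% under median-ratio scaling and 49.2% with quantile normalization. Over all genes, 4433 were higher and 2606 lower, against 2257 and 1179 with the fold threshold.

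In the chromatin list, 1 gene was lower under median-ratio scaling and under quantile normalization alike. In the translesion list, 4 were higher and 1 lower after quantile normalization, 3 were higher with the fold threshold, and 4 to 6 with a library left out. The replicate numbers were not taken to pair the libraries, since over all tested genes same-numbered deviations correlated at 0.017, 0.332 and 0.012, and not every library correlated best with its own number. The summed level of the 58 genes did rise with the number in both groups. It was 296, 318 and 320 FPKM with miR-483 and 756, 826 and 859 FPKM with 8OH-G miR-483. With the number as a replicate block, 4798 genes were higher and 2796 lower, and of the 58 genes 56 were higher and LIG1 was lower (-0.20). Of the initiation and checkpoint list, 24 to 26 were higher without a miR-483 library and 18 to 20 without an 8OH-G miR-483 library. Without any 8OH-G miR-483 library, TICRR, MTBP, ATAD5, DTL, ESCO2 and EXO1 leave the fit through the filter. The planned comparison of seed matches was not run. Precision is limited to the spread of 3 libraries, since read depth is unknown.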
